A study of Mus musculus with 4 samples.

Results

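The BCL2 family decides at the mitochondrion whether a thymocyte lives or dies, and 10 of its genes were followed in DN4 thymocytes after induced deletion of Ikaros. They were Bcl2, Bcl2l1 and Mcl1 among the anti-apoptotic genes, Bcl2l11, Pmaip1, Bbc3, Bmf and Bid among the BH3-only genes, and Bax and Bak1 as effectors. Each gene was represented by the probe set with 1 gene symbol and the highest mean. This gave a value for 9 of the 10, out of 19938 genes with such a probe set, and Bax was not analysed here. Each of the 9 had exactly 1 probe set of this kind.

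DN4 cells are the last thymocytes that lack CD4 and CD8. They were sorted from 4 mice that all carried floxed alleles of the gene of Ikaros, a zinc-finger transcription factor of lymphocytes (Ikf/f), and that all were injected with tamoxifen (50 mg/kg) on each of 4 days and analysed 24 h after the last dose. The 2 Cre+ mice (numbers 129 and 135) also carried Rosa26-CreERT2, a tamoxifen-inducible Cre recombinase expressed from a ubiquitously active locus, and the 2 Cre- mice (131 and 137) were Ikf/f without it. The effect of losing Ikaros and that of an active recombinase therefore cannot be told apart, and the design does not limit deletion to thymocytes. Ages were not given in the sources used here.

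In healthy cells the anti-apoptotic proteins hold the effectors BAX and BAK in check. BH3-only proteins are produced or activated under stress, after cytokine withdrawal or after strong receptor signals, and they bind the anti-apoptotic proteins or the effectors, which then permeabilise the outer mitochondrial membrane. In the thymus, BCL2 and MCL1 keep immature T cells alive under interleukin-7, BCL-XL (the product of Bcl2l1) protects CD4+CD8+ cells, and BIM (the product of Bcl2l11) carries much of the death of self-reactive cells.

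The labelled cell type was compared with its markers first. As a measure of background, 31 genes of other organs such as Alb (liver) and Myh6 (heart) had mean log2 values between 4.14 and 7.43, with a 95th percentile of 7.30. All 12 measured markers of immature T cells lay above that percentile, with Thy1 at 13.17 and Cd3e at 12.98 on average. Cd44, which marks the earliest thymocytes, lay below it at 6.14. Il2ra, whose product CD25 is lost from the surface by the DN4 stage, averaged 11.08, Cd8b1 11.68 and Cd4 7.64, so genes of the stages before and after gave signal too. Among the B cell genes 1 of 7 lay above the percentile (Cd79b). So did, by their means, 1 of 10 macrophage and dendritic cell genes (Cd74), 2 of 7 natural killer cell genes (Nkg7 and Gzma) and 0 of 4 erythroid genes. By mouse, Lyz2 was above that percentile in both Cre+ mice (7.56 and 7.59) and below it in both Cre- mice (6.79 and 6.29). Cd74 and Cd68 were above it in mice 135 and 137. The defining genes Ms4a1, Csf1r, Adgre1, Ncr1 and Klrb1c lay between 4.13 and 5.58. Of 7 stroma genes 4 lay above (Epcam, Krt8, Col1a1 and Pecam1), and the thymic epithelial genes Foxn1 and Psmb11 did not. Xist, which silences 1 X chromosome in females, had values of 12.51 and 5.29 in Cre+ mice against 12.34 and 4.93 in Cre- mice and so did not follow Cre. By Xist, mouse 129 matches mouse 131 and mouse 135 matches mouse 137, and each such pair holds 1 mouse of either group.

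Of the 9 BCL2 family genes, 7 gave signal above the 95th percentile of the genes of other organs in all 4 mice. These were the anti-apoptotic Bcl2, Bcl2l1 and Mcl1, the BH3-only genes Bcl2l11, Bmf and Bid, and the effector gene Bak1. Bbc3 was below it in all 4 mice, between 6.90 and 7.11. Pmaip1 was above it in both Cre+ mice and below it in both Cre- mice. Probe sets differ in how brightly they report the same amount of transcript, so these values tell apart genes with and without clear signal and do not rank the family members by abundance. In RNA from a sorted population, fewer cells with a transcript and less transcript per cell cannot be told apart.

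**Figure D1:**
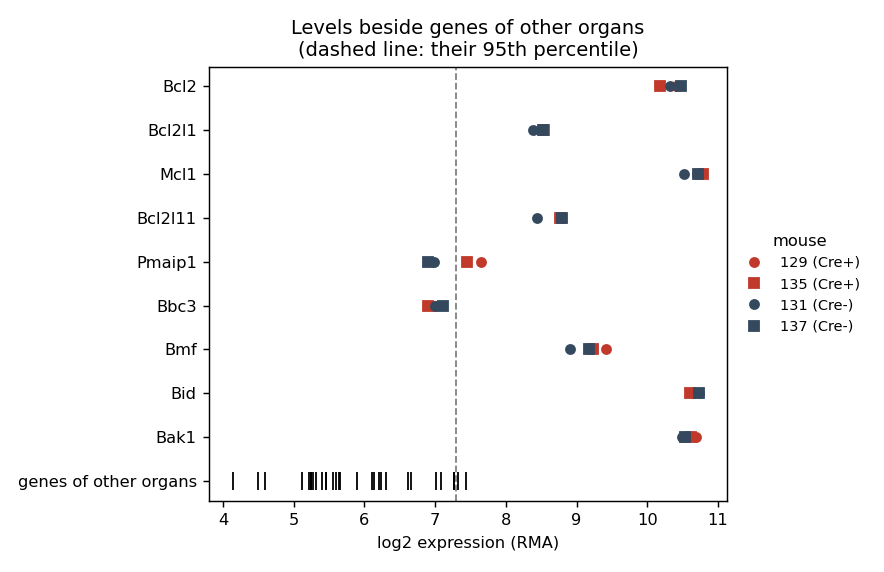
Log2 expression (RMA, horizontal axis) of the 9 BCL2 family genes, 1 point per mouse (Cre+ red, Cre- dark), above the means of 31 genes of other organs (ticks), whose 95th percentile of 7.30 is the dashed line. Bbc3 lies left of the line in all 4 mice, Pmaip1 right of it only in the 2 Cre+ mice, and the other 7 genes right of it throughout.

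The comparison of Cre+ with Cre- mice asked which family members differ once Ikaros is removed. The targeted gene itself, Ikzf1, was at 12.06 and 11.99 in Cre+ cells and at 12.07 and 12.11 in Cre- cells. Where its probes lie relative to the floxed part was not analysed here, so this value does not check the deletion; the series' design text reports the loss of the protein from Cre+ cells by western blot. Over all 35556 probe sets the limma test at an adjusted p under 0.05 called 0 of the 9 genes, where the background of such calls was 0%. At an unadjusted p under 0.05 it picked out 1 of the 9 (Pmaip1), against 6.63% of all probe sets and 6.76% of those with 1 gene symbol. Restricting the test to the 21789 probe sets that carry 1 gene symbol gave 1 call among the 9, again Pmaip1, against a background of 1.22%, or 0.936% for higher values alone. The values of the 2 groups did not overlap for 3 genes that were higher in Cre+ mice (Pmaip1, Bmf and Bak1; background 16%) and for 2 that were lower (Bid and Bbc3; background 20.2%).

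**Figure D2:**
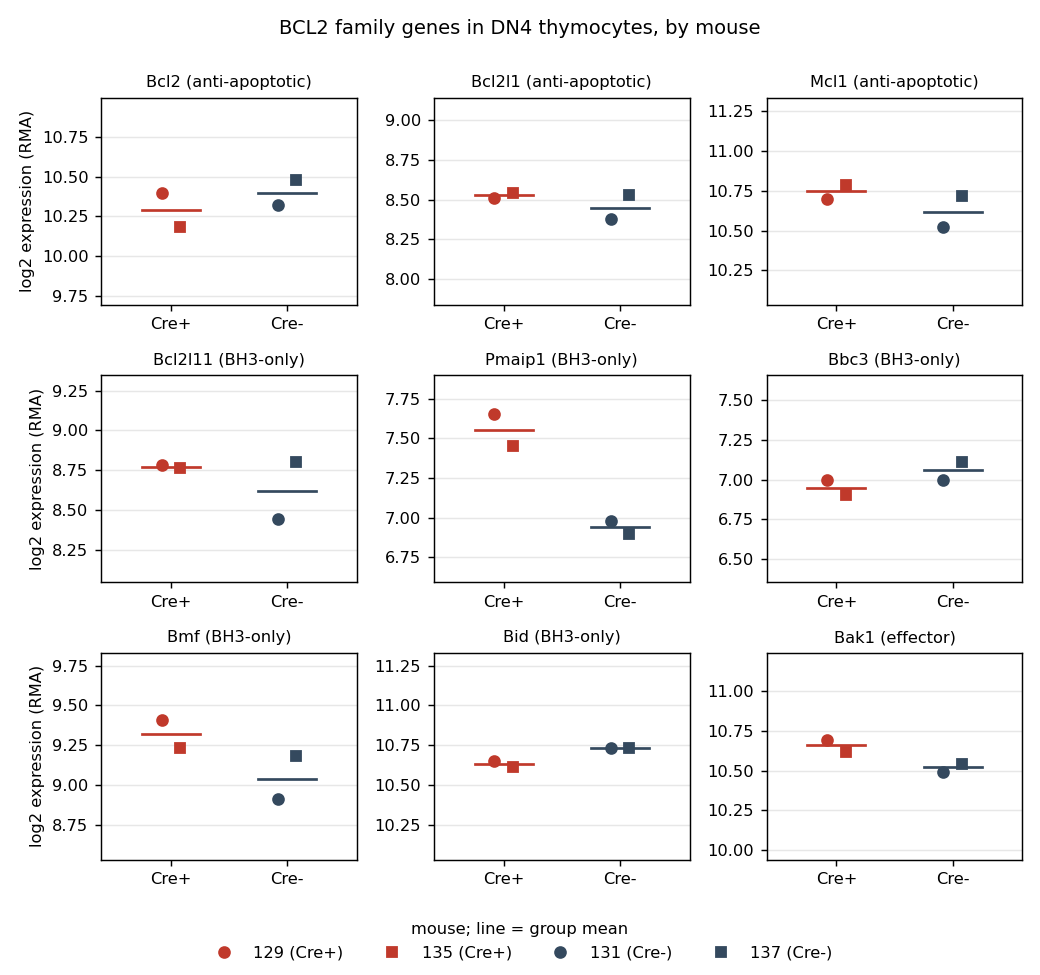
Log2 expression (RMA, vertical axis, the same span in every panel) of each of the 9 BCL2 family genes, with 1 point per mouse and a line at the mean of each group of 2 mice. Pmaip1 is the gene with the widest space between Cre+ and Cre- mice, 0.48, and for Bcl2, Bcl2l1, Mcl1 and Bcl2l11 the groups overlap.

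The anti-apoptotic genes did not pass any threshold. Bcl2, whose product guards immature and mature lymphocytes, was at 10.40 and 10.18 in Cre+ mice and at 10.32 and 10.48 in Cre- mice. The 2 Cre+ mice differed by 0.22 and the 2 Cre- mice by 0.16, both more than the difference between the groups of -0.11 on the log2 scale (SE 0.10). Its 95% interval from limma ran from 0.773-fold to 1.11-fold, and the difference was -0.22 without mouse 129 and 0.00 without mouse 135.

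Mcl1 encodes a short-lived protein that lymphocytes need at nearly every stage, and it was at 10.70 and 10.79 in Cre+ mice against 10.52 and 10.72 in Cre- mice. Mouse 131 was the lowest and the other 3 lay within 0.09 of each other. The difference was 0.13 (SE 0.08, interval 0.941-fold to 1.27-fold), and it was 0.03 without mouse 131. Bcl2l1, the gene of BCL-XL, was at 8.51 and 8.54 in Cre+ mice and at 8.38 and 8.53 in Cre- mice. Here too mouse 131 was lowest, and the difference of 0.07 (SE 0.10, interval 0.888-fold to 1.25-fold) was 0.00 without it. For these 3 genes changes in either direction that lie inside the intervals could not be told from 0 with 2 mice per group.

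Among the BH3-only genes, Pmaip1 stood higher in Cre+ cells. It encodes NOXA, which binds MCL1, and it is a classic p53 target that is also induced through other pathways. Pmaip1 was at 7.65 and 7.45 in Cre+ mice (7.55 ± 0.138, SD, n = 2 mice) and at 6.98 and 6.90 in Cre- mice (6.94 ± 0.054). Both Cre+ values were above both Cre- values, and the 0.48 between the nearest mice exceeded the 0.19 between the 2 Cre+ mice and the 0.08 between the 2 Cre- mice. The difference was 0.61 (SE 0.11), 1.53-fold with an interval from 1.25-fold to 1.87-fold. In limma the adjusted p = 0.354 over all probe sets and adjusted p = 0.0392 among those with 1 gene symbol. That call was lost without mouse 129 (difference 0.51, adjusted p = 0.288) and without mouse 135 (0.71, adjusted p = 0.0511). It was also lost in limma without the intensity trend (adjusted p = 0.0638). Without mouse 131 the difference was 0.65 and without mouse 137 it was 0.57, both still called. Within the pair of mice with high Xist the difference was 0.67, and within the pair with low Xist it was 0.55. Both had to be positive, since the groups did not overlap, so their sign is no further test. With these Xist pairs as a block, Pmaip1 was again called among probe sets with 1 gene symbol (limma adjusted p = 0.0053). In all 565 of the 21789 were called then, against 266 without the block. The block was added after seeing the data and left 1 residual degree of freedom. Since both Cre- values lay within the range of the genes of other organs, the fold describes the RMA values and not transcript numbers.

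Bmf, whose product is tied to the cytoskeleton in resting cells and responds to detachment and to loss of survival factors, was at 9.41 and 9.23 in Cre+ mice and at 8.91 and 9.18 in Cre- mice. The groups did not overlap, but only 0.047 separated the lower Cre+ mouse from the higher Cre- mouse. The difference was 0.28 (SE 0.13, interval 0.965-fold to 1.52-fold, limma adjusted p = 0.83 over all probe sets). It was 0.14 without mouse 131 and 0.41 without mouse 137.

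Bcl2l11, the gene of BIM, was at 8.78 and 8.76 in Cre+ mice and at 8.44 and 8.80 in Cre- mice. The 2 Cre+ mice and mouse 137 lay between 8.76 and 8.80, with mouse 131 alone lower. Its difference of 0.15 (SE 0.14, interval 0.865-fold to 1.42-fold) turned to -0.03 without mouse 131. Bid, which caspase-8 cleaves to link death receptors to mitochondria, was at 10.65 and 10.61 in Cre+ mice and at 10.73 in both Cre- mice. The groups lay 0.072 apart, and the difference of -0.09 (SE 0.05, interval 0.855-fold to 1.03-fold) had an adjusted p = 0.898 in limma. Bbc3, the gene of the p53-induced protein PUMA, was at 6.996 and 6.899 in Cre+ mice and at 6.999 and 7.114 in Cre- mice. Only 0.0030 separated the groups, the difference was -0.11 (SE 0.10), and all 4 values were within the background range.

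Bak1 was the effector gene measured, and its product forms pores in the outer mitochondrial membrane. It was at 10.69 and 10.62 in Cre+ mice and at 10.49 and 10.54 in Cre- mice. Neither group spread by more than 0.07, and the groups lay 0.083 apart. The difference was 0.14 (SE 0.06, interval 0.996-fold to 1.22-fold), with a limma adjusted p = 0.764 over all probe sets and 0.509 among those with 1 gene symbol. It ranged from 0.11 to 0.18 when single mice were left out.

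**Figure D3:**
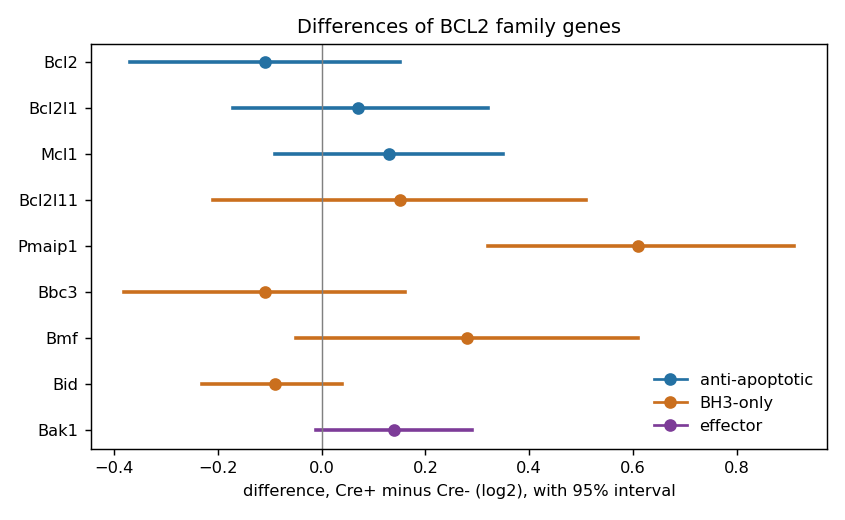
Difference of each of the 9 genes, Cre+ minus Cre- on the log2 scale (point), with its 95% interval from limma (bar), coloured by role. The interval of Pmaip1, 0.32 to 0.91, lies right of 0, that of Bak1 (-0.01 to 0.29) reaches it narrowly, and the 3 anti-apoptotic genes span it.

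The promoters of Bmf and Bak1 are shown because these genes, with Pmaip1, were the members whose Cre+ values lay above all Cre- values. The sequences are RefSeq windows of 300 bases (250 before an annotated start of the gene and 50 from it) in build GRCm38.p6. They were searched on both strands for TGGGAA, the core letters of the Ikaros consensus, which reads TTCCCA on the other strand. Capitals mark a match, and for Bmf, which has 3 windows, the one with matches is given.
Bmf (chr2:118544538-118544837, minus strand): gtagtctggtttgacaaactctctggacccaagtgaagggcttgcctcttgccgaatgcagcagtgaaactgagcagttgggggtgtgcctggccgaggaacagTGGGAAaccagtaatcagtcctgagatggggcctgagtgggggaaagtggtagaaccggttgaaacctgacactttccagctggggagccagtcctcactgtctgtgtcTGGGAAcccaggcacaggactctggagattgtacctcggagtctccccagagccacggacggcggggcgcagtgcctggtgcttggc
Bak1 (chr17:27028578-27028877, minus strand): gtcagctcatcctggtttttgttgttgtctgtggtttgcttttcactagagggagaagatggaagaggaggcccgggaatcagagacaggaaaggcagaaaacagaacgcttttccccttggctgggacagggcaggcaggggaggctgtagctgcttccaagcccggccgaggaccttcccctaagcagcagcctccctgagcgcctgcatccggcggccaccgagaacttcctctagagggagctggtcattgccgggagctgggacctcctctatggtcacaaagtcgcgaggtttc

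The Bmf window held 2 matches, the first beginning 146 bases before the start, and its other 2 windows held 0. The Bak1 window held 0. Of 16 windows for 9 of the 10 genes (all but Pmaip1), 2 held a match (12.5%, the other being that of Bax), against 25.6% of all 32851 windows. A match describes the letters of the window and is no evidence of binding.

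As a group, 6 of the 9 genes had higher means in Cre+ cells, with a median difference of 0.13, where 45.9% of all genes were higher and the median was -0.01. Mouse 131 weighed on this count. It held the lowest of the 4 values for 5 of the 9 genes (Bcl2l1, Mcl1, Bcl2l11, Bmf and Bak1), compared with 24.3% of all genes. Without it 4 of the 9 genes were higher and the median was 0.00, while all other mice left out singly kept the count at 6. Mouse 131 was also lowest for 10 of 13 p53 target genes and 10 of 13 regulators of the family. In that mouse the signal-induced nuclear receptor gene Nr4a1 was at 9.09, against 10.71 and 10.51 in Cre+ mice and 10.11 in the other Cre- mouse. The heat-inducible chaperone gene Hspa1a read 8.43 there, compared with 11.51 and 12.14 in Cre+ mice and 12.36 in mouse 137. The part of this mouse in the result for Pmaip1 is given by the values without it above.

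The other genes of the pathway were compared as lists. Of 15 other BCL2 family genes measured out of 18, 9 were higher and 6 lower in Cre+ cells, with a median of 0.02, and 0 were called in either limma test. Bnip3l, the gene of the mitophagy receptor NIX, was at 12.48 in both Cre+ mice and at 12.33 and 12.31 in Cre- mice. It differed by 0.16 (SE 0.03, limma adjusted p = 0.0638 among probe sets with 1 gene symbol), and its other probe set differed by 0.17. Bcl2l2, which encodes the anti-apoptotic BCL-W, differed by 0.29 (SE 0.11), with values between 6.69 and 7.05 that lay within the background range in all 4 mice. Bcl2l14, a less studied family member, differed by -0.32 (SE 0.09), with both Cre+ values below both Cre- values.

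Downstream of the mitochondrion, 15 of 17 apoptosome and caspase genes were measured, of which 6 were higher and 9 lower (median -0.02). The gene of the executioner caspase Casp6 was the 1 called, in the restricted test, where the background of calls was 1.22%. Casp6 was at 10.51 and 10.59 in Cre+ mice and at 10.21 and 10.13 in Cre- mice, which differ by more than either group spreads. The difference was 0.38 (SE 0.06, 1.30-fold), with a limma adjusted p = 0.312 over all probe sets and 0.0377 among those with 1 gene symbol. The call was lost without mouse 129 (adjusted p = 0.0804), without mouse 135 (0.144), without mouse 137 (0.0662) and in limma without the intensity trend (0.126). The mitochondrial protease gene Htra2 differed by -0.13 (SE 0.05) and Aifm1, the gene of apoptosis-inducing factor, by -0.18 (SE 0.08). Of 6 caspase inhibitors 2 were higher and 0 were called, with 0.27 (SE 0.08) for Xiap, which blocks caspases directly, -0.10 for Birc6 (0.01 without mouse 137) and -0.09 for Birc2.

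Upstream, 7 of 8 death receptor and adaptor genes were measured, of which 0 were called and 5 were higher. Tnfrsf10b, the mouse TRAIL receptor gene, was at 7.52 and 7.57 in Cre+ mice and at 7.22 and 7.18 in Cre- mice (difference 0.34, SE 0.09), with both Cre- values within the background range. Tnfrsf1a, a receptor gene for tumour necrosis factor, differed by 0.25 (SE 0.09), and Tnfsf10, the gene of TRAIL, by 0.12 (SE 0.12). Among 13 regulators of the family measured out of 16, 0 were called. Nr4a1 differed by 1.01 (SE 0.33), the glucocorticoid-induced gene Tsc22d3 by 0.36 (SE 0.12) and the glucocorticoid receptor gene Nr3c1 by -0.15 (SE 0.08). Without mouse 131 the difference of Nr4a1 was 0.50 and that of Tsc22d3 0.23, without mouse 137 that of Nr4a1 was 1.51, and without mouse 129 that of Nr3c1 was -0.06. Il7r, the receptor chain through which interleukin-7 sustains Bcl2 and Mcl1, was at 9.62 and 9.26 in Cre+ mice and at 10.07 and 9.69 in Cre- mice. Its difference was -0.44 (SE 0.18, or -0.25 without mouse 131 and -0.26 without mouse 135), and only the 0.07 between mice 129 and 137 kept the groups apart. In the same list 8 of 10 genes were measured and 0 were called. Stat5b differed by 0.10 (SE 0.05) and Pim2 by -0.09 (SE 0.08).

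Of 14 other p53 target genes 13 were measured. Of these 11 were higher, where 45.9% of all genes were, with a median of 0.07, and 0 were called. Ei24 differed by 0.25 (SE 0.05), Trp53inp1 by 0.33 (SE 0.11) and the antiproliferative gene Btg2 by 0.28 (SE 0.15). Without mouse 131 only 6 of the 13 were higher and the median was -0.02, and the difference was 0.17 for Trp53inp1, 0.07 for Btg2 and again 0.25 for Ei24. Mdm2, the p53-induced inhibitor of p53, differed by -0.03 (SE 0.08) and was chosen after its values were seen.

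**Figure D4:**
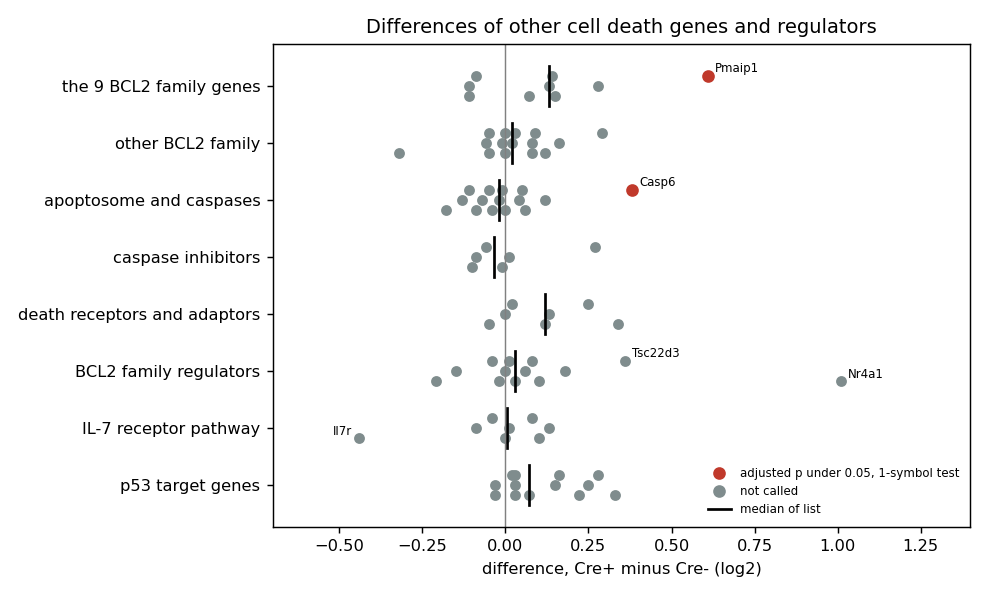
Difference of each gene, Cre+ minus Cre- on the log2 scale (horizontal axis), for the 9 BCL2 family genes and 7 lists of related genes, with 1 point per gene and a line at the median of each list. Red points (Pmaip1 and Casp6) passed an adjusted p under 0.05 in the restricted test over probe sets with 1 gene symbol; names are given from a difference of 0.36 in size.

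Marker genes of other cells were set beside these results. Over all probe sets with 1 gene symbol, the restricted test called 1.22% (0.936% higher and 0.285% lower). Lyz2, a macrophage gene, was at 7.56 and 7.59 in Cre+ mice and at 6.79 and 6.29 in Cre- mice (difference 1.04, SE 0.18) and was called in the restricted test, as 1 of 10 genes of its list. The summed linear level of that list was 811 and 889 in Cre+ mice and 747 and 918 in Cre- mice. Cd74 raised the sum of mouse 137, where it was at 8.28, against 7.02 and 7.45 in Cre+ mice and 7.14 in mouse 131. By their means 9 of the 10 genes were not above the background percentile, so the sum cannot show whether macrophage signal shifted. Natural killer genes summed to 5702 and 5522 in Cre+ mice and to 6892 and 6717 in Cre- mice, with 1 of 7 called, Nkg7, which was lower. Most of this sum came from Gzma, at 12.31 and 12.25 in Cre+ mice and at 12.48 and 12.46 in Cre- mice. By their means, the genes other than Gzma and Nkg7 were not above the background percentile. B cell genes summed to 1642 and 1489 in Cre+ mice and to 1428 and 1388 in Cre- mice, with 0 of 7 called. That sum is mostly Cd79b, at 10.34 and 10.15 in Cre+ mice and at 10.04 and 9.96 in Cre- mice. Of the 7 genes 5 were lower in Cre+ cells. The sums for erythroid genes were 376 and 353 in Cre+ mice against 384 and 333 in Cre- mice, and those for stroma genes were 1656 and 1691 against 1825 and 1804, with 0 called in either list. Markers of immature T cells summed to 46981 and 43240 in Cre+ mice and to 39690 and 39993 in Cre- mice, with Cd3d, Cd3e and Cd3g called higher among 12. Genes of the CD4+CD8+ stage summed to 9360 and 9105 in Cre+ mice and to 9518 and 10011 in Cre- mice, with Rag1 called higher and Ccr9 lower among 7. The 3 genes of earlier stages summed to 2422 and 1972 in Cre+ mice and to 3375 and 2287 in Cre- mice, with 0 called. The part of these shifts in the differences of Pmaip1 and Casp6 was not tested.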

How the data were processed

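Total RNA of the sorted cells was amplified in 2 cycles with biotin label, and each mouse had its own Affymetrix mouse gene array, per the labels' protocols. RMA is the 1 tool named in the submitters' processing notes, and the values deposited by the authors are on a log2 scale, as read from their range (3.14 to 14.4, array medians 6.85 to 6.88). No version, filter or build is given in the sources used here. Groups follow the Cre status in the titles, since the treatment text names Cre+ for all mice. Genes were named through the platform annotation (21789 of 35556 probe sets with 1 symbol).

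Differences were tested with limma 3.58.1 in R 4.3.3 (lmFit, eBayes with intensity trend), adjusted by Benjamini-Hochberg over all probe sets, with 2 residual and 2.99 prior degrees of freedom. An exact two-sided permutation test of 2 against 2 mice cannot give a p under 0.333. The number of arrays limits the precision. The code was tested on simulated data. The rule for names took the 10 genes, Ikzf1, markers and the 3 smallest p in each list plus any called. Xist, Hspa1a and Mdm2 were named outside this rule, as were Alb and Myh6 as examples of genes of other organs. The members and lists were chosen with earlier results of these data known. No gene was named for likeness of pattern, as 4 arrays are too few. The alternatives were other normalizations, filters, eBayes settings, array weights, the 1-symbol test and leaving out each mouse, with Xist level as a block added later.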

Additional observations from a re-analysis of the deposited data

How the results depend on the processing

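Over all probe sets limma called 0, and it called 10 after the arrays were centred on their medians, 25 among probe sets with a mean above the 25th percentile, 80 among those above the median and 266 when limited to probe sets with 1 gene symbol. In that last setting 1 of the 9 BCL2 family genes was called, against 0 in each of the others. Of 117 differences of single family members recomputed under the settings other than the Xist block, 114 kept their direction and their side of the threshold. The 2 that reversed were Bcl2l1 (-6.5e-05) and Bcl2l11 (-0.03) without mouse 131 (at most 0.15 and 0.33 with another mouse left out), and the 1 that passed was Pmaip1 in the 1-symbol test. Pmaip1 ranged from 0.51 to 0.71. The intensity filters, the eBayes settings and the 1-symbol test leave each difference as it is, and so did array weights here. Of the 117, only those under other normalizations or a mouse left out could therefore reverse. Leaving out a mouse could not reverse Pmaip1, Bmf, Bak1, Bid or Bbc3 either, since their groups did not overlap. Added after seeing the data, the 1-symbol test was combined with each alternative: Pmaip1 was not called without the trend, without mouse 129 or without mouse 135, and 0 of the 9 genes were called then. The number of genes above background was 7 at the 95th percentile and at the highest gene of other organs, and 9 at the median of all probe sets. The mouse numbers pair no mice. A block for mice of like Xist level (129 with 131, 135 with 137) was added after seeing the data and left 1 residual degree of freedom. It gave 0 calls over all probe sets, so all 9 genes kept their side of the threshold. Each pair holds 1 mouse of either group, so the block cannot change a difference and does not test its direction. Within the pairs Bcl2 differed by 0.077 (high Xist) and -0.3 (low Xist), and Bcl2l11 by 0.34 and -0.044. The other family members had the same sign in both pairs. For Pmaip1, Bmf, Bak1, Bid and Bbc3 that was fixed in advance, since their groups did not overlap. No gene of the family had another probe set with 1 gene symbol, so that alternative was not run. With 2 mice per group, signal within the background range (Bbc3, and Pmaip1 in Cre- mice) limits what the folds can show.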
